A study of Sus scrofa with 26 samples.

Results

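The genes described here are the core genes of the circadian clock, measured in the subcutaneous adipose tissue (SCAT) of 26 pigs. The list held 10 genes, namely the activators ARNTL (also called BMAL1) and CLOCK, the repressors PER1, PER2, PER3, CRY1 and CRY2, the nuclear receptors NR1D1 and NR1D2, and the output factor DBP. They were chosen by name and not by any measured value. The array carried a probe for 9 of them under the symbols, accessions and descriptions of its annotation, out of 11585 named genes on the array, and DBP was not analysed here. Of these 9 genes, 8 gave a signal bright enough to be tested.

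Each array was hybridised with the RNA of 1 castrated growing male pig. Pigs were of 3 breeds, Creole (8 arrays), Large White (LW, 9 arrays) and their cross (F1, 9 arrays). Within each breed, pigs were slaughtered either at thermoneutrality (TN, 24 °C, 11 arrays in all) or under heat stress (HS, 15 arrays), which the labels put at 30 °C and the design text at 32 °C over 5 days. The 6 groups were Creole TN (3 arrays), Creole HS (5), F1 TN (4), F1 HS (5), LW TN (4) and LW HS (5). All pigs were kept in climatic rooms under one fixed schedule of artificial light, in blocks of littermates. TN pigs were slaughtered before the temperature was raised and HS pigs after it, so that temperature, day of slaughter and age at slaughter cannot be told apart. The hour at which each pig was slaughtered, its litter and its pen are not in the labels, and p-values treat the animals as independent.

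The circadian clock is a loop of transcription factors that runs in most cells, adipocytes included. ARNTL and CLOCK pair to switch on the PER and CRY genes, whose proteins then block that pair, and the NR1D1 and NR1D2 receptors (REV-ERB alpha and beta) repress ARNTL. ARNTL is therefore high at the time of day at which NR1D1, NR1D2 and the PER genes are low. In adipose tissue the clock is known to time lipolysis, fatty acid synthesis and adipokine release.

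Expression is given throughout as the log2 of the quantile-normalised median pixel intensity, so that a difference of 1 is a doubling. Probes have different binding strengths, and the level of 1 gene is not compared with that of another. From 41314 to 46185 probes per array were well above background, and arrays of the same group correlated with r from 0.97 to 0.99. The 7 adipocyte markers (ADIPOQ, PLIN1, FABP4, LEP, CIDEC, LIPE and PPARG) were well above background on all 26 arrays, and all 8 skeletal muscle markers also had tested probes. Genes with several probes are represented by the one with the highest mean level, and the other probes are given beside it.

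The 60-base probes printed here, in lower case and as the array holds them, show what was measured for the genes described in most detail. Those of ARNTL, CRY2 and NR1D1 (O11226) gave the values below, while the PER3 probe is the dimmer of its pair of tested probes and repeats the comparison of breeds. They stand for ARNTL (chr2:45895637-46025174 in Sscrofa11.1, RefSeq annotation), CRY2 (chr2:16587101-16620380), PER3 (chr6:68487634-68548718) and NR1D1 (chr12:22263549-22274131). The other tested genes are PER1 (chr12:53361863-53376723), PER2 (chr15:137793419-137837854), CRY1 (chr5:13275265-13429566) and NR1D2 (chr13:10756954-10791219). Both NR1D1 probes are shown because they differed in brightness, and the capitals mark the ATG with which the dim one, not tested, begins.
ARNTL probe A_72_P481317: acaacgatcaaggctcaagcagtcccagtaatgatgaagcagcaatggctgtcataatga
CRY2 probe O8368: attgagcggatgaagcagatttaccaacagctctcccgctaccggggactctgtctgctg
PER3 probe O9093: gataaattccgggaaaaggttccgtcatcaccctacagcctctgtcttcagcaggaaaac
NR1D1 probe O11226: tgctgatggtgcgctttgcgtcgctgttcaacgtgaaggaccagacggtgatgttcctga
NR1D1 probe A_72_P186261: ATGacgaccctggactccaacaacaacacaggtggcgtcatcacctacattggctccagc
No genome sequence was used here, so that the place of each probe within its gene was not mapped. The annotated span of NR1D1 overlaps that of THRA, the thyroid hormone receptor alpha, which lies on the opposite strand in mammals.

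The first question was whether heat changed the clock genes of SCAT. None of the 8 tested clock genes passed the threshold (adjusted p of 0.05) for HS minus TN in limma, with breed in the model. Of the 44703 probes tested 5447 passed it, or 12.2%, and 0 of 8 genes is not far from that share. The median change of the 8 genes was -0.04 on the log2 scale, against 0.0024 over all tested probes. At an unadjusted p under 0.05 the count among the 8 genes was also 0, against 12032 of the 44703 tested probes.

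ARNTL, which pairs with CLOCK to switch on the PER and CRY genes, ranged from 7.51 to 9.41. In Creole pigs it was 7.62, 7.99 and 8.80 at TN and 8.17, 8.25, 8.35, 8.46 and 8.86 at HS. In F1 pigs it was 7.76, 8.17, 8.61 and 8.80 at TN and 7.98, 7.996, 8.17, 8.41 and 8.95 at HS. In LW pigs it was 8.30, 8.47, 8.86 and 9.41 at TN and 7.51, 7.95, 8.30, 8.47 and 8.75 at HS. The 2 temperatures overlapped in every breed, and 14 of the 15 HS pigs lay inside the range of the TN pigs. The change was -0.13 (SE 0.17, adjusted p = 0.69, limma), and 8 of the 15 HS pigs were below the TN mean of their own breed. The other ARNTL probes gave -0.19 and -0.10. CLOCK, the DNA-binding partner of ARNTL, was well above background on 0 of the 26 arrays (4.74 to 5.40), and was not tested.

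The PER genes encode the repressors that accumulate through the day and are also induced by hormones such as glucocorticoids. PER1 was 14.20 ± 0.38 at HS (SD, n = 15) and 14.28 ± 0.38 at TN (n = 11), a change of -0.06 (SE 0.14, adjusted p = 0.82, limma). PER2 was 8.58 ± 0.14 at HS and 8.60 ± 0.13 at TN (change -0.02, 95% interval -0.14 to 0.10). PER3 was 7.34 ± 0.22 at HS and 7.37 ± 0.30 at TN (change -0.05, interval -0.23 to 0.12), and its other probe gave 0.07. The HS and TN ranges overlapped for all 3 PER genes. For PER2 the interval leaves room for a change of at most 0.14 on the log2 scale in either direction, while for PER1 it reached from -0.35 to 0.22. PER2 had 1 tested probe, and its sequence ends in a repeat of the bases ct. Any effect of that repeat on its values was not tested.

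CRY1 and CRY2 encode the cryptochromes, the partners of the PER proteins and the stronger repressors of the loop. CRY1 had the largest change of the 8 genes, from 8.71 ± 0.22 at TN to 8.50 ± 0.30 at HS (-0.21, interval -0.42 to 0.01, adjusted p = 0.20, limma). It did not pass the test, although 11 of the 15 HS pigs were below the TN mean of their own breed and the HS mean was the lower one on each of the 5 slides. Its other probe gave -0.16 (adjusted p = 0.21). CRY2 was 7.51 ± 0.21 at HS and 7.48 ± 0.19 at TN (change 0.03, adjusted p = 0.85).

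NR1D1 and NR1D2 encode haem-binding receptors that repress ARNTL and, in fat, genes of lipid metabolism. NR1D1 was 7.88 ± 0.61 at HS and 7.81 ± 0.48 at TN. Its change was 0.03 (SE 0.19, adjusted p = 0.94, limma). NR1D2 was 11.06 ± 0.29 at HS and 10.91 ± 0.26 at TN, a change of 0.14 (SE 0.11, adjusted p = 0.42, limma). The HS pigs reached both above and below the range of the TN pigs for NR1D1, and 2 of the 15 were above it for NR1D2.

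**Figure D1:**
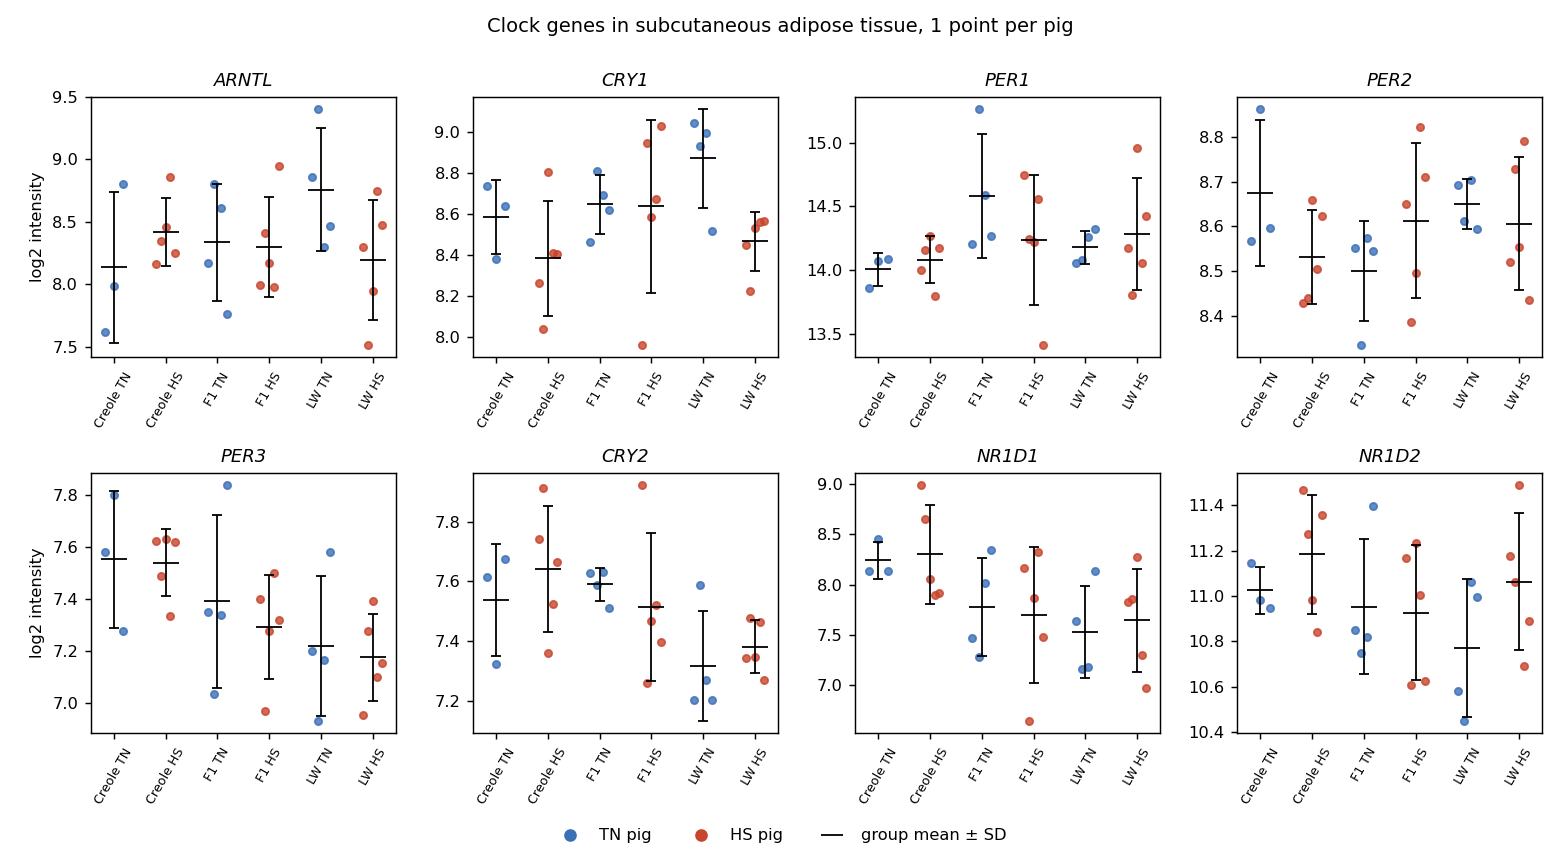
Levels of the 8 tested clock genes on each array (log2 normalised intensity, vertical axes differ between genes) by breed and temperature; each point is 1 pig, and bars give the mean and SD of the group. HS and TN pigs overlap for every gene, while 7 of the 9 LW pigs lie below the lowest Creole pig for NR1D1 and 6 of 9 for PER3.

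Red blood cell markers moved with temperature in the same tissue pieces. Of the 5 tested markers 2 were lower at HS, and their mean centred level ranged from -0.03 to 0.57 at TN and from -0.49 to 0.37 at HS. Of 6 fibroblast and matrix markers 4 were higher at HS (-0.86 to 0.35 at TN, -0.23 to 0.65 at HS). Of 7 adipocyte markers 1 was higher at HS, and of 5 endothelial markers 1 was lower. With the red blood cell level as a covariate 528 probes were called for temperature in place of 5447, the ARNTL change was 0.10 in place of -0.13 and the NR1D2 change 0.0087 in place of 0.14, with neither gene called in either model. In a tissue sample, fewer cells of a type and less RNA per cell cannot be told apart.

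The second question was whether the response to heat differed between breeds. No clock gene passed the test within Creole pigs, F1 pigs or LW pigs, where 0.0716%, 0.421% and 1.5% of all tested probes passed in limma. These backgrounds depend on single pigs, since leaving out 1 array at a time gave from 0 to 205 called probes in Creole (32 with all arrays), from 0 to 494 in F1 (188) and from 112 to 1137 in LW (669). At an unadjusted p under 0.05 the count among the 8 genes was 0 in Creole, 0 in F1 and 1, CRY1, in LW, by the brightest probes. Over all 44703 tested probes that count was 4975 in Creole, 7133 in F1 and 7477 in LW. ARNTL had values of opposite sign in Creole and LW pigs. In Creole pigs the 5 HS pigs were all above the TN mean (8.42 ± 0.27, n = 5, against 8.14 ± 0.60, n = 3), and the change was 0.28 (SE 0.31, adjusted p = 0.80). In LW pigs the 5 HS pigs were all below the TN mean (8.20 ± 0.48, n = 5, against 8.76 ± 0.49, n = 4), and the change was -0.56 (SE 0.28, adjusted p = 0.32). The other ARNTL probes gave -0.60 (unadjusted p = 0.029, adjusted p = 0.24, limma) and -0.34 in LW pigs, and 0.19 and 0.13 in Creole pigs. In F1 pigs it was -0.03 (adjusted p = 0.97). The interaction of breed and temperature was not called for ARNTL (adjusted p = 0.90, limma F-test) nor for the other 7 genes, and 0.00224% of all tested probes passed it. At an unadjusted p under 0.05 the count for the interaction among the 8 genes was again 0, against 2336 of the 44703 tested probes. The TN mean of Creole rests on 3 pigs, of which 1 was at 8.80.

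CRY1 in LW pigs was 8.52, 8.93, 8.998 and 9.05 at TN and 8.23, 8.45, 8.53, 8.56 and 8.57 at HS. These ranges overlapped only between 8.52 and 8.57, and all 5 HS pigs were below the TN mean. The change was -0.41 (SE 0.17) and did not pass the test over all probes (adjusted p = 0.23, limma). It was -0.20 in Creole pigs and -0.01 in F1 pigs, and the adjusted p of the interaction was 0.90. The other CRY1 probe did not repeat the larger change in LW pigs. It gave -0.20 in LW (adjusted p = 0.51, limma, 4 of 5 HS pigs lower), -0.21 in Creole and -0.08 in F1 pigs.

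The third question was whether the clock genes differed between breeds. In LW pigs NR1D1 and PER3 were lower than in Creole pigs, and these were the 2 of 8 clock genes called for LW minus Creole at an adjusted p of 0.05 (limma, with temperature in the model). Over the whole array 14.3% of the probes were called in this comparison, and 2 of 8 genes is not far from that share. The median difference of the 8 genes was -0.07, against 0.0025 over all tested probes.

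NR1D1 was 8.13, 8.14 and 8.45 in Creole TN pigs and 7.90, 7.91, 8.05, 8.65 and 8.998 in Creole HS pigs. It was 7.16, 7.17, 7.63 and 8.14 in LW TN pigs and 6.96, 7.30, 7.82, 7.86 and 8.27 in LW HS pigs. The 9 LW pigs were all below the Creole mean of their own temperature, and 7 of the 9 were below the lowest Creole pig. The difference was -0.69 (SE 0.23, 95% interval -1.15 to -0.22, adjusted p = 0.042, limma), that is 0.62 of the Creole level. Within the 4 slides that held both breeds it was between -0.97 and -0.26. The call is close to the threshold and was lost, with adjusted p from 0.051 to 0.094, when any 1 of 11 arrays was left out, of which 6 were Creole and 5 LW pigs, and with slide as a fixed block (-0.73, adjusted p = 0.054). F1 pigs spread over both parents, from 6.63 to 8.34, with 7.28, 7.47, 8.01 and 8.34 at TN and 6.63, 7.47, 7.87, 8.17 and 8.33 at HS. The order of the means was Creole (8.28 ± 0.39, n = 8), F1 (7.73 ± 0.57, n = 9) and LW (7.59 ± 0.47, n = 9), and F1 overlapped both neighbours. The dim NR1D1 probe that begins with ATG was well above background on 4 of 8 Creole, 1 of 9 F1 and 0 of 9 LW arrays, and was too dim to be tested.

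PER3 was 7.28, 7.58 and 7.80 in Creole TN pigs and 7.33, 7.49, 7.62, 7.63 and 7.63 in Creole HS pigs. It was 6.93, 7.17, 7.20 and 7.58 in LW TN pigs and 6.95, 7.10, 7.16, 7.28 and 7.39 in LW HS pigs. Of the 9 LW pigs 8 were below the Creole mean of their own temperature and 6 were below the lowest Creole pig. The difference was -0.35 (SE 0.10, interval -0.57 to -0.14, adjusted p = 0.024, limma), between -0.57 and -0.25 within the 4 slides. The other PER3 probe, whose sequence is printed above, gave -0.27 (SE 0.07, adjusted p = 0.016). The order of the means was Creole (7.55 ± 0.17), F1 (7.34 ± 0.25) and LW (7.20 ± 0.20), again with overlap between neighbours. The call of the brightest probe was lost when 1 Creole TN pig, replicate 2, was left out (-0.32, adjusted p = 0.055).

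The remaining clock genes did not pass the test between these breeds. CRY2 was 7.60 ± 0.20 in Creole, 7.55 ± 0.18 in F1 and 7.35 ± 0.13 in LW pigs (LW minus Creole -0.25, adjusted p = 0.053), with 8 of the 9 LW pigs below the Creole mean of their temperature. Its other probe gave -0.12 (adjusted p = 0.33), and over the 26 arrays these 2 CRY2 probes did not follow each other (r = -0.11 after removal of the group means, as a description). NR1D2 was 11.12 ± 0.22 in Creole and 10.93 ± 0.32 in LW pigs (difference -0.18, interval -0.45 to 0.08). ARNTL, CRY1, PER1 and PER2 had values of 0.13, 0.17, 0.18 and 0.04 for the same difference, with adjusted p from 0.38 to 0.76.

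In the test for any difference between the 3 breeds, which 11.3% of all probes passed, none of the 8 clock genes was called by its brightest probe. The adjusted p was 0.062 for PER3, 0.087 for NR1D1 and 0.10 for CRY2. The unadjusted p of these 3 of the 8 genes was under 0.05, as was that of 11907 of the 44703 tested probes. The other PER3 probe was called (adjusted p = 0.040). F1 pigs were also set against the mean of both parent breeds, where 0.00671% of all probes were called. No clock gene was called there, either after adjustment or at an unadjusted p under 0.05, and PER1 had the largest value (0.24, SE 0.14, adjusted p = 0.65). Of the 44703 tested probes 3885 had an unadjusted p under 0.05 in that comparison.

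Adipocyte markers and matrix markers moved with breed too. Of the 7 adipocyte markers 1 was lower in LW pigs, and their mean centred level was 0.01 to 0.44 in Creole and -0.23 to 0.04 in LW pigs. Of the 6 fibroblast and matrix markers 3 were higher in LW pigs (-0.86 to 0.23 in Creole, -0.14 to 0.65 in LW), and of 5 endothelial markers 1 was. Skeletal muscle and keratinocyte markers varied most between pigs. None of the 8 muscle and 4 keratinocyte markers tested was called, and the differences of their mean levels were -0.85 (muscle, -1.33 to 2.75 in Creole, -2.20 to 1.71 in LW) and 0.70 (keratinocyte, -1.56 to 1.68 in Creole, -1.23 to 2.53 in LW). For HS minus TN these were 0.54 and 0.79, again with none called. The part of these markers in the NR1D1 and PER3 differences was not tested.

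**Figure D2:**
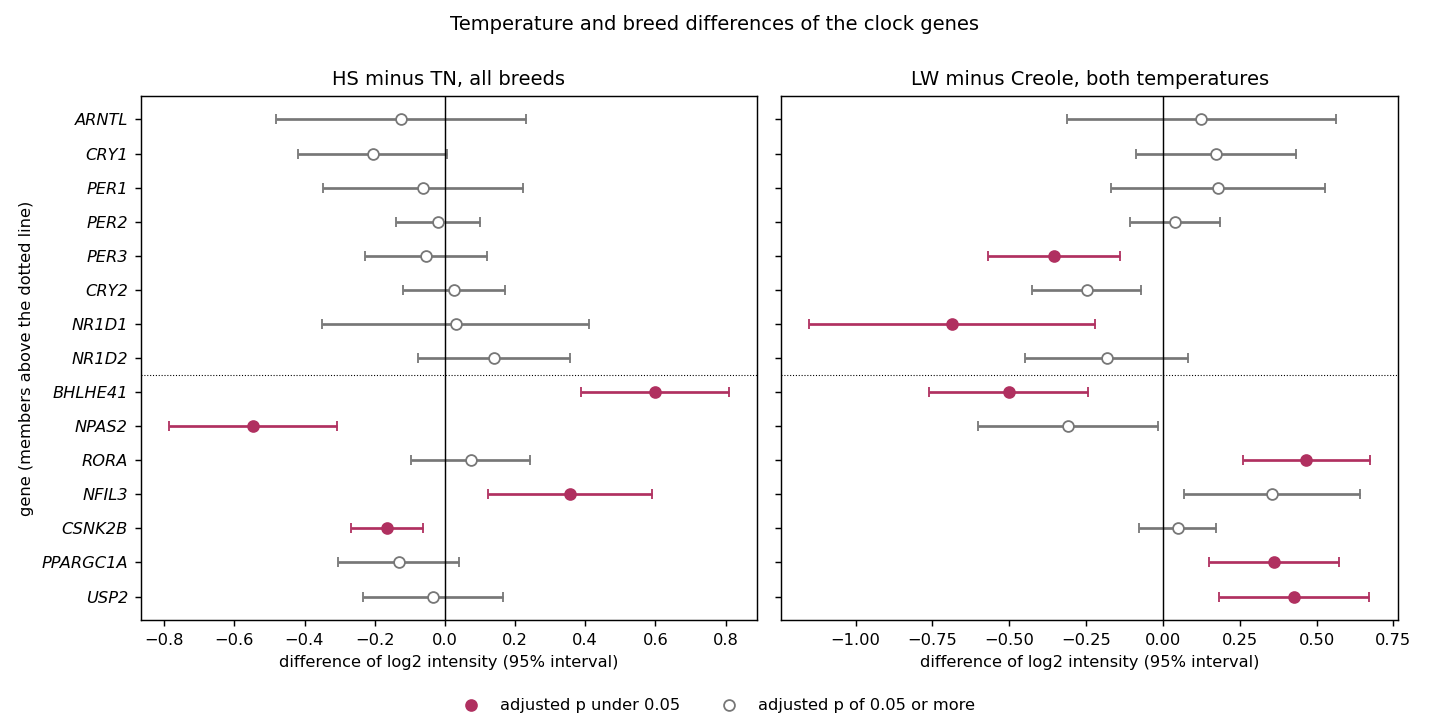
Difference in log2 level for HS minus TN (left) and LW minus Creole (right) with 95% intervals from limma, for the 8 clock genes and 7 further clock-related genes that passed a test; filled points passed the threshold of an adjusted p of 0.05. No core clock gene is filled on the left, and NR1D1 (-0.69) and PER3 (-0.35) are filled on the right.

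The fourth question was how the clock genes varied relative to one another between pigs of the same group. The deviations of each gene from its 6 group means were correlated over the 26 arrays, ARNTL being set against each of the 7 other tested members. ARNTL was inversely related to NR1D2, with Pearson r = -0.76 (permutation p adjusted over 7 pairs = 0.00049) and Spearman rho = -0.77 (adjusted permutation p = 0.00063). It was also inversely related to PER3 (r = -0.68, adjusted permutation p = 0.0069, rho = -0.71, adjusted p = 0.0028) and to NR1D1 (r = -0.51, adjusted permutation p = 0.030, rho = -0.55, adjusted p = 0.015). Pigs with more ARNTL than their group thus tended to have less NR1D2, PER3 and NR1D1.

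The relation with CRY1 was positive and did not pass (r = 0.43, adjusted permutation p = 0.057, rho = 0.45, adjusted p = 0.062). PER1 and PER2, which the background above also places opposite to ARNTL, were not called. PER2 (r = -0.15, rho = -0.17), PER1 (r = -0.09, rho = -0.05) and CRY2 (r = -0.02, rho = -0.09) had adjusted permutation p from 0.64 to 0.93 for both measures. The 26 points share slides, litters and the normalisation, and the hour of slaughter of each pig was not known.

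The inverse relation of ARNTL and NR1D2 was present in every subset examined. Pearson r was -0.68 in Creole, -0.83 in F1 and -0.76 in LW pigs, -0.83 at TN and -0.72 at HS, and between -0.998 and -0.54 within the 5 slides, each of 4 to 7 arrays. Without the 2 arrays whose ARNTL deviation from its group mean was farthest from the median deviation, Creole TN replicate 3 and LW TN replicate 2, it was -0.78. PER3 and NR1D1 were below 0 within the 5 slides as well (-0.996 to -0.18 and -0.94 to -0.17). Without the same 2 arrays r was -0.57 for PER3 and -0.52 for NR1D1, each with an adjusted permutation p of 0.051 over fewer arrays. The value for NR1D1 was no weaker than with all arrays, while that for PER3 was weaker.

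**Figure D3:**
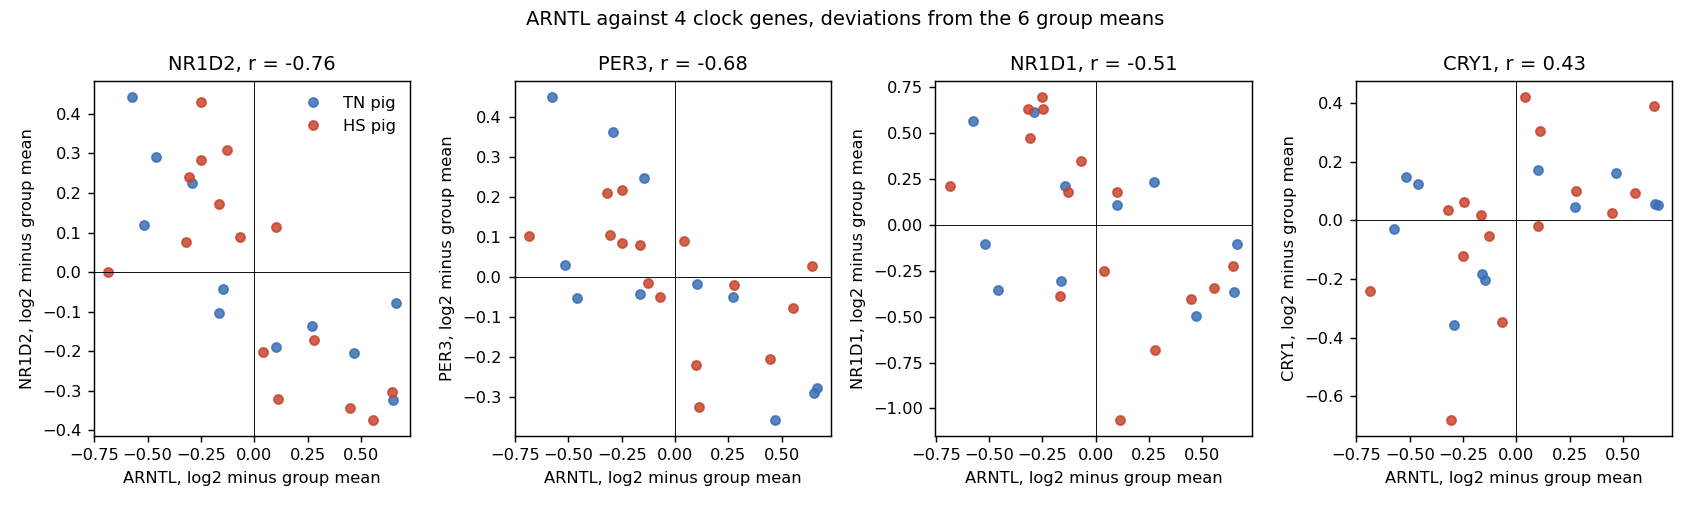
Deviation of ARNTL from its group mean (horizontal axis, log2) against the deviation of NR1D2, PER3, NR1D1 and CRY1 (vertical axes, log2) on the 26 arrays, 1 point per pig and coloured by temperature. Pigs of both temperatures lie along the falling trend for NR1D2 (r = -0.76), PER3 (r = -0.68) and NR1D1 (r = -0.51), and CRY1 has r = 0.43.

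Among all 28 pairs of the 8 genes r ranged from -0.76 to 0.69, as a description. The 3 highest pairs joined NR1D1 with NR1D2 (0.69), NR1D1 with PER3 (0.69) and NR1D2 with PER3 (0.61). CRY1 was opposed to CRY2 (-0.60) and to NR1D1 (-0.56). The value with CRY2 rests on its brightest probe, which the other CRY2 probe did not follow (r = -0.11). NR1D1, NR1D2 and PER3 thus formed one set of genes that moved together between pigs and against ARNTL and CRY1.

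**Figure D4:**
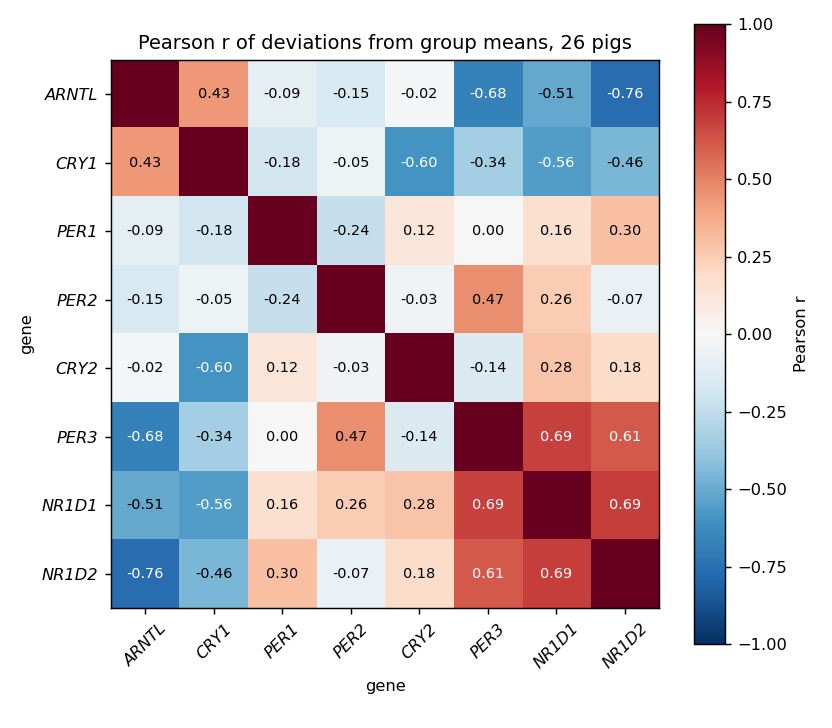
Pearson r between the deviations from the group means of each pair of the 8 clock genes over 26 arrays, from -0.76 (ARNTL with NR1D2) to 0.69 (NR1D1 with NR1D2). NR1D1, NR1D2 and PER3 are positive with one another and negative with ARNTL and CRY1.

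Of the 9980 other named genes that were tested, those with the deviations most like ARNTL were EIF4EBP1 (r = 0.76), CCDC160 (0.73), PSMG1 (0.72), RNF185 (0.70) and TSNAX (0.68). The lowest were NR1D2 (-0.76), NIPAL2 (-0.74) and TSHZ2 (-0.70), and PER3 had rank 6 from the bottom. NR1D2 thus had the lowest r with ARNTL among these 9980 tested genes. Among the related genes listed below, NPAS2 had rank 18 from the top (0.62) and HLF rank 29 from the bottom (-0.57). For NR1D1 the most alike genes were ETV1 (0.78), PMAIP1 (0.76), MCM3 (0.75), TRAPPC2 (0.74) and CORO1C (0.74), with NR1D2 at rank 20 and PER3 at rank 22, and the lowest were PHF1 (-0.79), RNF138 (-0.78) and PKN2 (-0.77). These ranks are descriptions over 26 arrays and carry no test.

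Clock genes differed in how much they varied between pigs of one group. The residual SD was largest for NR1D1 (0.51 on the log2 scale), at percentile 95.9 of all tested probes, followed by ARNTL (0.45, percentile 93.9) and PER1 (0.37, percentile 89.8). It was 0.28 for NR1D2, 0.27 for CRY1, 0.23 for PER3 and 0.18 for CRY2. PER2 had the smallest (0.13, percentile 18.1), below the median of all probes (0.18). Among the 1000 probes nearest in mean level, NR1D1 was at percentile 95.7, ARNTL at 92.7 and PER2 at 13.1.

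Around the core loop, 30 further genes were listed, namely paralogs and side loops, factors of the PAR bZIP family, kinases and ubiquitin ligases, replication partners and clock outputs. Of these 26 had a probe and 23 were tested. In HS pigs 2 of the 23 were higher and 2 were lower than in TN pigs, against 12.2% of all tested probes called, with a median change of -0.03. In LW pigs 3 were higher and 2 lower than in Creole pigs, against 14.3%, with a median difference of -0.09.

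BHLHE41 (DEC2), a repressor that competes with ARNTL and CLOCK for their binding sites, was higher under heat. It ranged from 9.02 to 10.52 (median 9.57) in the TN pigs and from 9.86 to 10.70 (median 10.24) in the HS pigs. All 15 HS pigs were above the TN mean of their breed, and the change was 0.60 (SE 0.10, adjusted p = 0.00068, limma). It was 0.41 in Creole, 0.52 in F1 and 0.84 in LW pigs, of which the change in LW passed the test (adjusted p = 0.016). BHLHE41 was also lower in LW than in Creole pigs (-0.50, SE 0.13, adjusted p = 0.0095), with all 9 LW pigs below the Creole mean of their temperature. Its other probe moved by 0.05 with heat (adjusted p = 0.69) and by -0.08 between breeds (adjusted p = 0.58), so that both calls rest on 1 probe.

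NPAS2, the paralog that can take the place of CLOCK as partner of ARNTL, was lower under heat. It ranged from 7.78 to 9.25 (median 8.16) in the TN pigs and from 7.20 to 8.16 (median 7.67) in the HS pigs. All 15 HS pigs were below the TN mean of their breed, with a change of -0.55 (SE 0.12, adjusted p = 0.0033, limma). It was lower on 4 of 5 slides, and the call was lost with the red blood cell level as a covariate (-0.43, adjusted p = 0.14).

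NFIL3 (E4BP4), which represses the promoters that DBP and its relatives activate, was higher at HS (0.36, SE 0.11, adjusted p = 0.040, limma, 14 of 15 pigs), and 2 of its 3 probes passed. This call was lost when any 1 of 15 arrays was left out and with the red blood cell covariate (0.53, adjusted p = 0.051). CSNK2B, the regulatory subunit of casein kinase 2, was lower at HS (-0.16, SE 0.05, adjusted p = 0.032, limma, 13 of 15 pigs), with 2 of 5 probes passing, and its call was lost without any 1 of 7 arrays and with that covariate (-0.18, adjusted p = 0.16). KLF9, a glucocorticoid-induced and clock-controlled factor, was not called by its brightest probe (-0.35, adjusted p = 0.090, limma), although 7 of its 11 probes were called and all 11 had a negative value. It falls outside the rule for named genes and was added after its values were seen.

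Between the breeds, RORA, the receptor that activates ARNTL at the sites where NR1D1 represses it, was higher in LW pigs. It ranged from 7.998 to 8.27 in Creole pigs and from 8.23 to 8.95 in LW pigs, so that the breeds met only at the edge. The difference was 0.47 (SE 0.10, adjusted p = 0.0038, limma, 9 of 9 LW pigs).

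The clock outputs USP2, a ubiquitin-specific protease, and PPARGC1A, the coactivator of mitochondrial genes and of ROR receptors, were both higher in LW pigs. USP2 differed by 0.43 (SE 0.12, adjusted p = 0.018, limma, 9 of 9 pigs) and PPARGC1A by 0.36 (SE 0.10, adjusted p = 0.020, limma, 9 of 9 pigs), with all 3 PPARGC1A probes called. The size of the USP2 difference depended on the processing. It ran from 0.34 to 0.69 under the alternatives and from 0.28 to 0.67 without single slides.

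**Figure D5:**
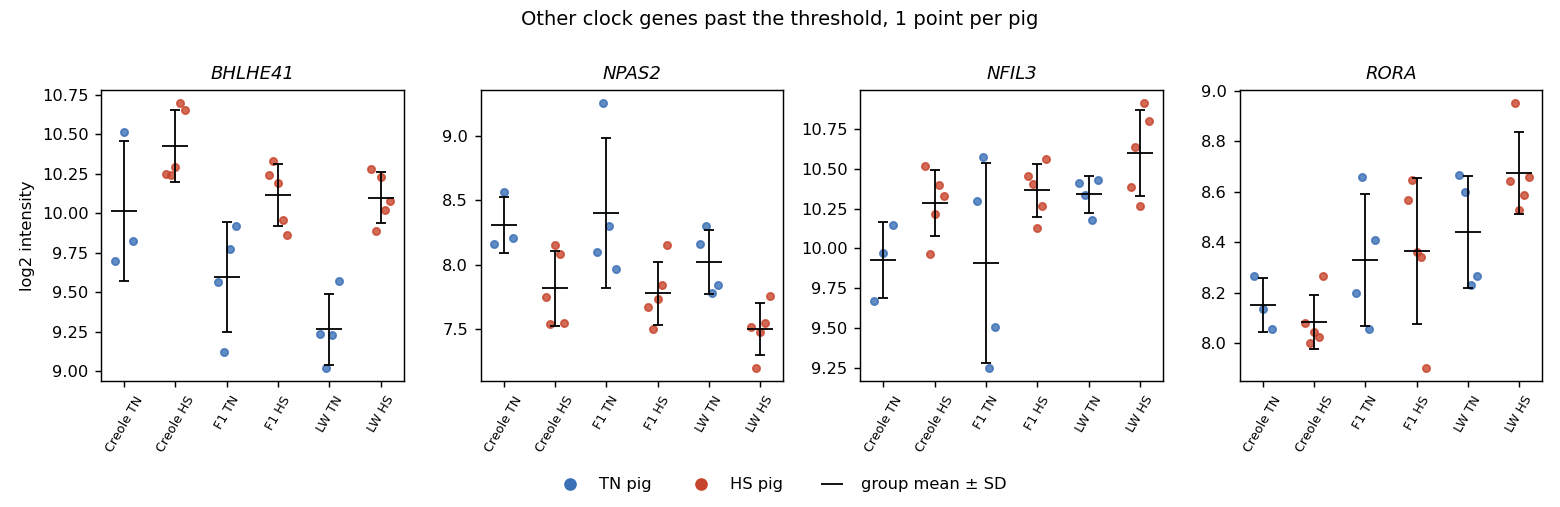
Levels (log2 normalised intensity) of BHLHE41, NPAS2, NFIL3 and RORA on each array by breed and temperature, each point 1 pig and each bar the mean and SD of a group. BHLHE41 and NFIL3 are higher and NPAS2 lower in HS pigs, and RORA is higher in LW (8.23 to 8.95) than in Creole pigs (7.998 to 8.27).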

How the data were processed

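RNA from SCAT was hybridised to one-colour porcine Agilent arrays, with 1 pig per array. Per the labels, the scanner files were made with Agilent Feature Extraction 10.10.1.1. The deposited files hold the median and mean pixel intensity, the local background intensity and a processed intensity of each spot, none scaled between arrays, and flags set by the software, read as the deposited 0 or 1 values (other), for spots well above background, saturated or non-uniform. The authors also deposited a matrix of log2, quantile-normalised median intensities of 44104 probes, used here as an alternative.

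The study's methods name limma and the dream function of variancePartition, with breed, temperature and random effects of the parents, the pen and the day of slaughter. The labels do not give these random effects, and they were left out. Median intensities were quantile-normalised without background correction and log2-transformed (R 4.3.3, limma 3.58.1, and version 1.17.8 of data.table), with the mean taken over repeated spots. A probe was kept (44703 were) if the software called it well above background on 8 or more arrays, the size of the smallest breed. Each probe was fitted with lmFit, and eBayes was run with its intensity trend. Temperature was estimated with breed in the model, breed with temperature in the model, and the changes within breeds and the interaction from 6 group means. p-values were adjusted by Benjamini-Hochberg across the 44703 probes, and 0.05 was the threshold. Correlations used deviations from the 6 group means and 100000 two-sided permutations within groups. The fits were tested on simulated data.

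Probes were named through the accessions, symbols and descriptions of the scanner files and the RefSeq genes of Sscrofa11.1, and 36140 of 60306 spots had no name. The named genes were every listed clock gene, of the related genes those past the threshold for temperature or LW minus Creole, and for ARNTL and NR1D1 the 5 most and 3 least alike genes. The values of 1 related gene that passed the threshold are not reported here. The genes and lists were chosen with earlier results of these data known. The alternatives tried were the scaling, background correction, filter on dim probes, slide as a block, array weights, variance prior, probe per gene, a red blood cell covariate, models without breed or without temperature, and leaving out each array or slide. The number of arrays limits the precision. The 5 slides held 4 to 7 arrays, each with both temperatures.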

Additional observations from a re-analysis of the deposited data

Results flagged for a closer look

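In F1 TN pigs, the PER2 level of replicate 2 (8.33) lay apart from the other 3 (8.54 to 8.57), the gap being 0.88 of the range of the group, above the critical value for 4 samples. In the same group, the NR1D2 level of replicate 4 (11.40) lay above the other 3 (10.75 to 10.85), with a gap of 0.84 of the range. These were 2 of 40 groups of clock gene values examined, and chance gives about 1 in 20.

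The change of ARNTL with heat was 0.84 higher on the log2 scale in Creole than in LW pigs (0.28 against -0.56). Leaving out 1 array at a time gave from 0.022 to 0.61 in Creole and from -0.71 to -0.34 in LW pigs. It was singled out because all 5 Creole HS pigs were above and all 5 LW HS pigs below the TN mean of their breed. The test of the interaction itself did not pass (adjusted p = 0.90, limma).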

How the results depend on the processing

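The count of 0 clock genes called for temperature, within each breed and for the interaction was the same under all alternatives run. The 2 calls for LW minus Creole became 1 with the processed intensity over its 75th percentile, without a filter on dim probes and with slide as a fixed block, in each of which PER3 was called and NR1D1 was not (-0.78, -0.69 and -0.73, adjusted p = 0.051, 0.055 and 0.054, limma), and ranged from 0 to 3 when single arrays or slides were left out. NR1D1 was not called without slides 1, 2, 3 or 4 in turn, nor PER3 without slides 1, 2 or 3, where fewer arrays were fitted. CRY2 was called with array weights (adjusted p = 0.025), with probes well above background on every array (0.047) and with the mean of its probes (-0.18, 0.047), and without any 1 of 5 arrays. The count for any breed difference was 1 with the mean of the probes, and from 0 to 1 on leaving out arrays. NFIL3 was not called with slide as a fixed block (adjusted p = 0.064), without the filter (0.052) or without the breed term (0.088). BHLHE41 kept its temperature call in every fit (0.32, with the mean of its probes, to 0.68), and lost that for LW minus Creole without the temperature term (adjusted p = 0.067) and without slides 3 or 4. CSNK2B was not called without any 1 of the 5 slides (adjusted p from 0.060 to 0.11), NFIL3 without slides 1, 3, 4 or 5 (0.098 to 0.15), NPAS2 without slide 3 (0.069), RORA without slide 4, USP2 without slides 1, 2 or 3, and PPARGC1A without slides 2 or 3. The cause of these losses was not tested.

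Uncalled values that changed sign were the temperature changes of PER3 (0.0067 with the processed intensity, 0.0078 with the mean of its probes), PER2 (0.011 with the processed intensity, 0.051 with the red blood cell covariate) and ARNTL (0.099 with that covariate), and the ARNTL change in F1 (0.021 and 0.15). When single arrays or slides were left out, the range was -0.23 to 0.12 for ARNTL in F1, -0.00011 to 0.24 for ARNTL in LW minus Creole, and, for temperature, -0.12 to 0.12 for NR1D1, -0.15 to 0.055 for PER1, -0.017 to 0.11 for CRY2 and -0.046 to 0.022 for PER2. Of the 3 correlations called with ARNTL, 1 (NR1D2) was called without the 2 farthest arrays, in TN arrays alone, in HS arrays alone, and with the ARNTL probe A_72_P044041, the last 3 of which were added after seeing the data. At TN alone r was -0.78 for PER3 and -0.42 for NR1D1, and at HS alone -0.54 and -0.60, each over fewer arrays. Also, r with CRY2 was 0.081 with slide means removed, 0.57 at TN alone and 0.021 with that probe, r with PER1 was 0.41 at TN alone, and the NR1D1 correlation was not called with the processed intensity (-0.47, adjusted permutation p = 0.058). The residual SD of NR1D1 was 0.62 with the processed intensity. The median of all probes moved by under 0.02 for temperature and for LW minus Creole under any scaling. No paired analysis was possible because the labels give no replicate numbers and name no litters. The replicate numbers used here were assigned in the order of the samples and pair nothing.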
